A study of Mus musculus with 3 samples.

Results

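The CC chemokine clusters of mouse chromosome 11 were examined for peaks of HA-tagged NUR77 in RAW264.7 macrophages. Their members were the peaks whose centre lay in either of 2 windows of genome build mm9. The first window, for Ccl2 and Ccl7, ran from 81.75 to 82 Mb, and the second, for Ccl5, Ccl9, Ccl6, Ccl3 and Ccl4, from 83.25 to 83.6 Mb. They held 61 of the 52946 peaks listed for the 3 replicates, with 11 of 6777 in replicate 1, 37 of 37307 in replicate 2 and 13 of 8862 in replicate 3. The windows were set by gene position and not by a measured value, though members were chosen with earlier results of these data known. No mm9 annotation was used here, so the placing of the genes rests on the windows, and no peak is assigned to a gene, a promoter or an exon.

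The series is 1 group of 3 chromatin immunoprecipitation sequencing (ChIP-seq) samples. RAW264.7 is a long-established macrophage line of the mouse, and all samples carried the stable doxycycline-inducible construct pINDUCER20b-HA-NUR77, so the factor was overexpressed under the inducer. Each replicate was grown in 6 dishes, given 1 µg/mL doxycycline for 18 hours, and its chromatin was pulled down through the HA tag. The labels do not say whether the line is 1 clone, and no sample without the tag or without doxycycline was analysed here, so comparisons are between replicates, between the windows, and with the rest of the genome. For each replicate the authors deposited peaks with a position and a score. The scale of the score is not stated, so each peak is given by its rank in its own list, with rank 1 for the highest score, or by that rank as a percentage of the list. Read counts are not part of the lists, so the depth is unknown and a missing peak is not shown to be an unbound site.

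CC chemokines are small secreted proteins that draw leukocytes to sites of inflammation by binding to G protein-coupled receptors. Ccl2 and Ccl7 attract monocytes, mainly through the receptor Ccr2. Ccl3, Ccl4 and Ccl5 attract T cells and monocytes, and Ccl6 and Ccl9 are ligands of Ccr1. Macrophages both make and answer to these proteins. NUR77, the product of Nr4a1, is an immediate early orphan nuclear receptor that binds DNA as a monomer at the NGFI-B response element (NBRE), AAAGGTCA, or as a dimer at related elements.

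The sequences before the members' transcription starts are shown first, since they can be read for this element. RefSeq's promoter table, of build GRCm38.p6, held 3 of the 7 genes, namely Ccl6, Ccl9 and Ccl3. Ccl2, Ccl7, Ccl5 and Ccl4 were not matched. The 250 bases before each start are printed on the strand of the gene, with every stretch that matches the NBRE on either strand with at most 1 mismatch in capitals. The positions are of GRCm38.p6, all 3 on the minus strand, and cannot be set beside the mm9 positions of the peaks.
Ccl6, chr11:83593088-83593337: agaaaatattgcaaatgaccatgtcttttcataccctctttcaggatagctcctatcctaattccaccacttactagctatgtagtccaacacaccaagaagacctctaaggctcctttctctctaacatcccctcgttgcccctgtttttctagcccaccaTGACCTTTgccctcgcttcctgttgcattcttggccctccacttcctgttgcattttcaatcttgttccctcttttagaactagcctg
Ccl9, chr11:83578637-83578886: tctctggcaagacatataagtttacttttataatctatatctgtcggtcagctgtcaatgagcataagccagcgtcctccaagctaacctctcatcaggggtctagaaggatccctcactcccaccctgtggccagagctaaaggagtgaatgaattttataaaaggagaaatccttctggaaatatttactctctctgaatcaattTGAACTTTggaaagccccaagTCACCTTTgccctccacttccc
Ccl3, chr11:83649379-83649628: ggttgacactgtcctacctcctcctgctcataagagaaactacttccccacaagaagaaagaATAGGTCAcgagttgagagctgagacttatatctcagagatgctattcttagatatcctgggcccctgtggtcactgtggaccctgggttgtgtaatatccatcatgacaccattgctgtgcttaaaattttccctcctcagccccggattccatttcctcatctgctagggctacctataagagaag

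Ccl6 was the sole gene of the 3 with the NBRE as written. It stood on the reverse strand, from 88 to 81 bases before the start. The element was found in 439 of all 32851 promoter windows of the same length, or 1.34%. Ccl9 had no full match but held 2 stretches with 1 mismatch. Counted from 1 at the first A of AAAGGTCA, these were G5T, from 43 to 36 bases before the start, and C7G, from 22 to 15 bases before it. Ccl3 had A2T on the forward strand, from 188 to 181 bases before the start. At most 1 mismatch was found in 20.9% of all promoter windows, so such a match is common. The hexamer AGGTCA, which lies within the NBRE, occurred in Ccl6 and Ccl3 and in 14.0% of all promoter windows. Of the other CC chemokine genes that neighbour the members (Ccl1, Ccl8, Ccl11 and Ccl12), 3 of 4 were matched. Ccl1, Ccl8 and Ccl12 held neither the NBRE nor the hexamer in these 250 bases. With 1 mismatch, Ccl1 had G5C from 26 to 19 bases before the start and Ccl12 had G4A from 28 to 21, so 2 of these 3 neighbours and all 3 matched members had a match at that tolerance. A match is a match of letters, and whether NUR77 bound there was not tested.

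Peaks were dense in the window of Ccl5, Ccl9, Ccl6, Ccl3 and Ccl4. Replicates 1, 2 and 3 listed 10, 28 and 10 peaks there, on average 16 ± 10.4 (SD, n = 3). Of 7575 consecutive tiles of 350 kb over the genome, 0.436%, 0.515% and 0.845% held at least as many peaks of the same replicate. Per Mb this was 28.6, 80.0 and 28.6 peaks, against 2.55, 14.1 and 3.34 over all nuclear chromosomes. The density was therefore 11.2, 5.69 and 8.56 times that of the genome, a mean of 8.48 ± 2.75 (SD, n = 3). It was higher in 3 of 3 replicates, with a mean log2 ratio of 3.03 ± 0.49 (SD, n = 3). The exact two-sided sign-flip permutation test over the 3 replicates gave p = 0.25, which is the smallest value that 3 replicates allow, so this design cannot pass a threshold of 0.05. With 3 replicates this p is 0.25 whenever all 3 ratios lie in the same direction, so it does not measure their spread. The labels do not describe how these samples differ beyond separate dishes.

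Merging the lists gave 34 regions in this window. Peaks of at least 2 replicates were present in 10 of them, against 25.4% of the regions of the whole series, and 4 of the 10 held all 3 replicates, against 48.4%. At least 10 shared regions were found in 84 of the tiles (1.11%). The remaining lists shared 6 regions without replicate 1, 5 without replicate 2 and 7 without replicate 3. Chromosome 11 as a whole had 1.49 ± 0.020 times the density of the genome (SD, n = 3), so the mean log2 ratio of the window was 2.46 ± 0.48 when set against its own chromosome.

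**Figure D1:**
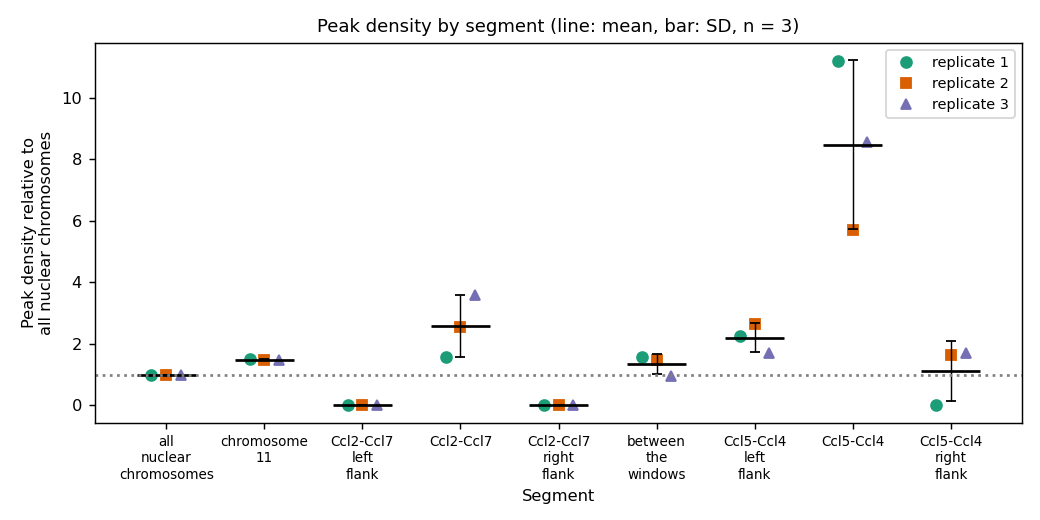
Peak density (vertical axis, relative to all nuclear chromosomes at 1) in the windows, in the flanks of the same length, between the windows and on chromosome 11. Points are replicates, lines are means and bars are SD (n = 3); the Ccl5-Ccl4 window lies at 5.69 to 11.2, the Ccl2-Ccl7 window at 1.57 in replicate 1 to 3.60 in replicate 3, and both flanks of the latter at 0.

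The window of Ccl2 and Ccl7, genes of monocyte-attracting ligands of Ccr2, held fewer peaks. Replicates 1, 2 and 3 listed 1, 9 and 3 peaks there, on average 4.33 ± 4.16 (SD, n = 3). Of 10610 tiles of 250 kb, 29.5%, 15.3% and 11.6% held at least as many. The density was 1.57, 2.56 and 3.60 times that of the genome, a mean of 2.57 ± 1.01 (SD, n = 3). It was above the genome in 3 of 3 replicates, with a mean log2 ratio of 1.28 ± 0.60 (exact sign-flip permutation test, two-sided, p = 0.25, the smallest possible). Against chromosome 11 the ratios were 1.04, 1.73 and 2.45, so replicate 1, with its 1 peak, was close to the chromosome. Of 10 regions, 2 held at least 2 replicates, and 21.3% of the tiles held at least as many such regions. Without replicate 2 or without replicate 3, 1 of these regions was left.

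The Ccl5-Ccl4 window had 7.14, 2.22 and 2.38 times the peak density of the Ccl2-Ccl7 window in replicates 1, 2 and 3. The mean log2 ratio was 1.75 ± 0.95 (SD, n = 3), in the same direction in 3 of 3 replicates (exact sign-flip permutation test, two-sided, p = 0.25, the smallest possible). The large ratio of replicate 1 rests on its 1 peak in the Ccl2-Ccl7 window, and without replicate 1 the mean log2 ratio was 1.20.

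The peaks of the Ccl2-Ccl7 window spanned 130 kb, from 81820307 to 81950256. No list had a peak in the 250 kb on either side of the window. Only 29.5% of tiles of 250 kb held 1 or more replicate 1 peaks, so an empty flank is common in that list. For the other lists this share was not computed. Mappability of these flanks was not tested. In gene order Ccl11, Ccl12, Ccl8 and Ccl1 follow Ccl7, and which of them lie in the window was not tested. Heatr9 comes just before Ccl5 and Wfdc17 just after Ccl4, and whether either lies in the Ccl5-Ccl4 window was not tested. The Ccl5-Ccl4 window had peaks on both sides, with 2, 13 and 2 peaks of replicates 1, 2 and 3 in the 350 kb before it and 0, 8 and 2 in the 350 kb after it. Each of those counts was below the count of the window in the same replicate.

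In the Ccl2-Ccl7 window, the sole region of all 3 replicates lay at 81855107 to 81855756 and was 650 bp wide. Its ranks in replicates 1, 2 and 3 were 2761, 14128 and 3770, or 40.7%, 37.9% and 42.5% of the lists. As a share of its list each rank was somewhat above the middle, while the rank itself was far larger in the longer list of replicate 2. The other shared region lay at 81820307 to 81820906, 34.8 kb away between centres. Replicate 2 gave it rank 3233 (8.67%) and replicate 3 rank 3455 (39.0%), and replicate 1 listed no peak there. Between these regions replicate 2 alone had 5 peaks, the best of them at 81837207 to 81837706 with rank 3695 (9.90%). A weak replicate 3 peak, ranked 7732 (87.2%), lay 720 bp from its edge without touching it.

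**Figure D2:**
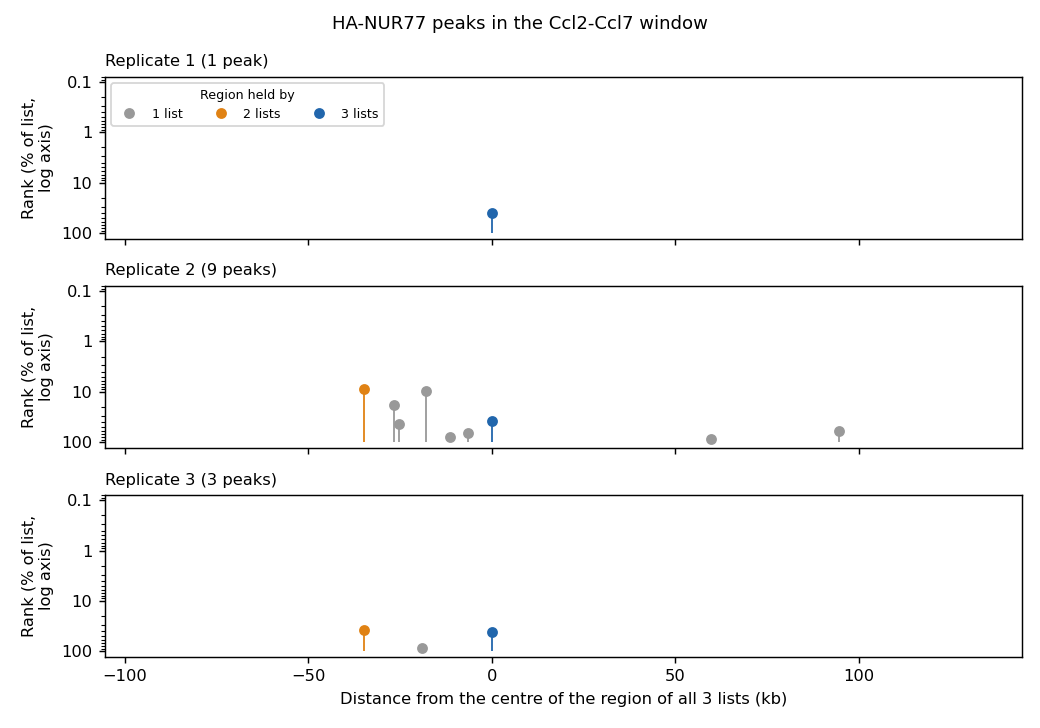
Peaks of each replicate in the Ccl2-Ccl7 window, by distance (kb) from the centre of the region of all 3 lists. The vertical log axis is the rank as a percentage of the list, with the best at the top, and colour gives the number of lists that hold the region. No peak ranks better than 8.67%, and the region of all 3 lists sits between 37.9% and 42.5%.

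In the Ccl5-Ccl4 window, 4 regions held all 3 replicates. The best-ranked lay at 83452457 to 83453056, with rank 232 (3.42%) in replicate 1, 335 (0.898%) in replicate 2 and 520 (5.87%) in replicate 3. Its replicate 2 score of 958.844 is shared by 549 peaks of that list, so rank 335 is the middle of a tie. The region at 83346607 to 83347306 followed, with ranks 887 (13.1%), 676 (1.81%) and 557 (6.29%). The region at 83550607 to 83551306 ranked 1559 (23.0%), 2844 (7.62%) and 753 (8.50%). These 3 regions ranked at 23.0% or better in every list.

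The remaining region of all 3 replicates differed more between lists. The peak at 83430057 to 83430706 had rank 717 (1.92%) in replicate 2, but 3538.5 (52.2%) in replicate 1 and 3682 (41.5%) in replicate 3. Right beside it, at 83432487 to 83432933, was a region of replicates 1 and 3 without replicate 2, with ranks 821 (12.1%) and 1490 (16.8%). The centres were 2.33 kb apart, so the better-ranked peak of this stretch lay at the first position in replicate 2 and at the second in replicates 1 and 3. Regions of replicates 1 and 3 without replicate 2 numbered 169 in the whole series, or 1.73% of the regions with at least 2 replicates.

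Replicates 1 and 2 without replicate 3 held 3 of the 10 shared regions of the window, against 15.4% of those of the series. The one at 83390434 to 83391106 was high in both, with rank 387 (5.71%) in replicate 1 and 1454 (3.90%) in replicate 2. The region at 83409157 to 83409806 had rank 3616 (53.4%) in replicate 1 and 5244 (14.1%) in replicate 2. The region at 83308907 to 83309556 had ranks 5141 (75.9%) and 7285.5 (19.5%). As the lists differ in length, these values only place the regions within each list. Whether binding differed between replicates was not tested, here or for the regions above. Replicates 2 and 3 without replicate 1 held 2 of the 10, against 34.5% in the series. At 83462807 to 83463456 replicate 2 had its best-ranked peak of both windows, at rank 42 (0.113%), and replicate 3 had rank 932 (10.5%). The region at 83341357 to 83342036 was near the middle of both lists, at 42.3% and 51.3%.

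**Figure D3:**
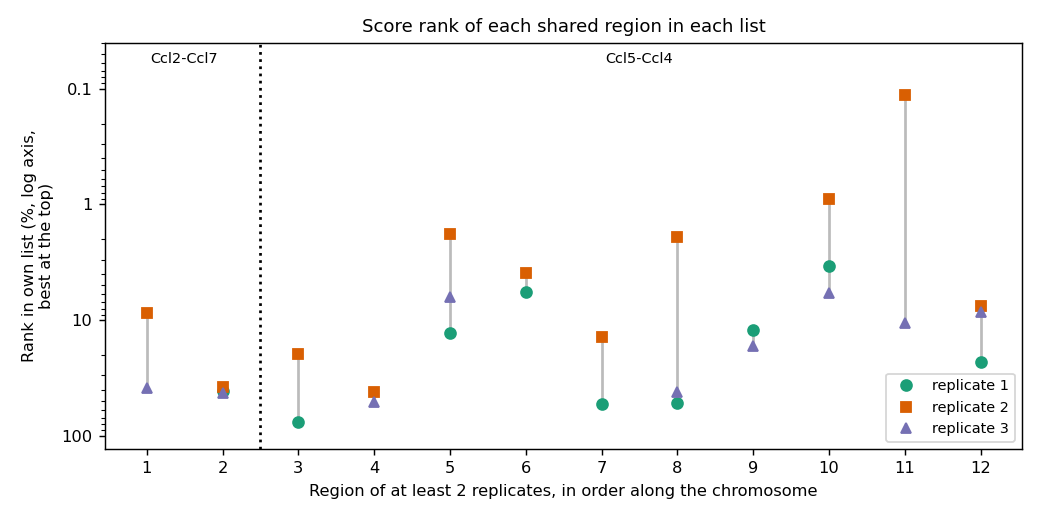
Rank in each list (vertical log axis, percentage of the list, best at the top) of the 12 regions with peaks of at least 2 replicates, numbered in order along the chromosome. The grey line joins the replicates of a region; region 2 spans 37.9% to 42.5%, while region 8 spans 1.92% to 52.2%.

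The strongest peaks of the Ccl5-Ccl4 window that had no partner lay together in a stretch of 4.03 kb, from 83475757 to 83479786. Replicate 2 had a peak at 83475757 to 83476206, in the tie at rank 335 (0.898%). Replicate 1 had its best-ranked peak of both windows at 83477084 to 83477483, with rank 58 (0.856%). Replicate 3 had its own best-ranked peak at 83479237 to 83479786, with rank 89 (1.00%). Each list thus placed a peak of its best 2% in this stretch, yet the peaks were separated by 877 and 1753 bp and no pair of them overlapped. Over the whole lists, 7.41%, 4.42% and 5.65% of the best 2% of peaks in replicates 1, 2 and 3 overlapped no other list. Of the 10 such replicate 1 peaks, 2 (20.0%, or 1.48% of the best 2% of that list) had such a peak of both other lists within 5 kb, this one included. This stretch was picked after its values were seen.

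**Figure D4:**
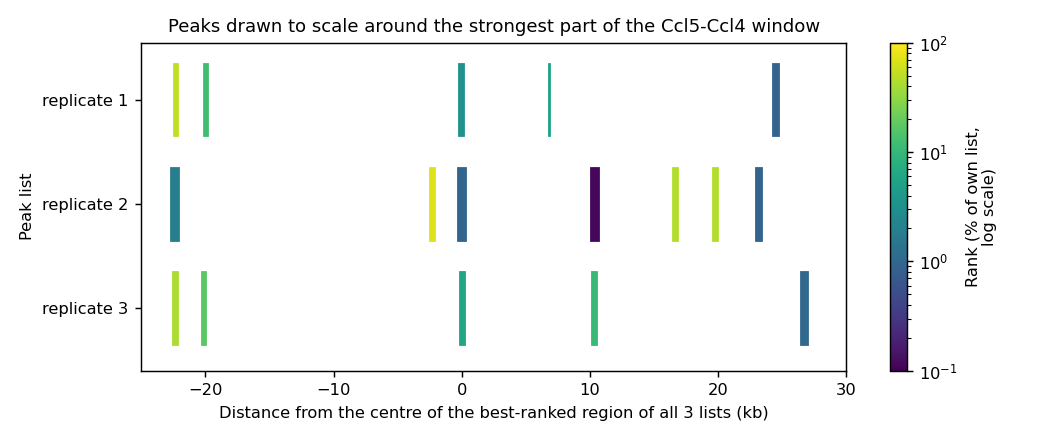
Peaks of the 3 lists drawn to scale around the best-ranked region of all 3 lists (horizontal axis, kb from its centre), coloured by rank as a percentage of the list on a log scale. The peaks at 0 line up in all lists, whereas the rightmost peak of each list, ranked 0.856% to 1.00%, is at a different position in each.

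From 83430057 to 83479786, a stretch of 49.7 kb also picked after its values were seen, 11 of the 34 regions of the window were found, 4 of them with at least 2 replicates. Replicates 1, 2 and 3 had 5, 7 and 5 peaks in it, and 3, 4 and 2 of these were in the best 10% of their lists. It included a 150 bp replicate 1 peak at 83459534 to 83459683 with rank 347 (5.12%). The nearest peak of another list lay 3123 bp away, in replicate 2. Outside this stretch, the peaks of the window in the best 10% of a list belonged to the regions that start at 83346607, 83390434 and 83550607.

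**Figure D5:**
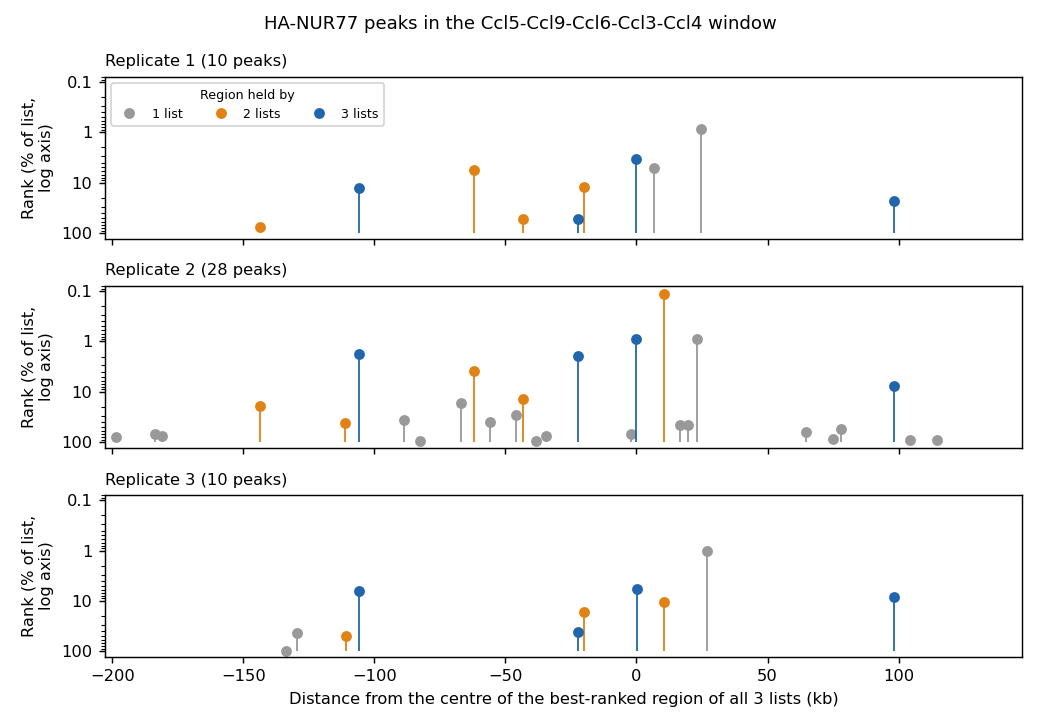
Peaks of each replicate in the Ccl5-Ccl4 window, by distance (kb) from the centre of the best-ranked region of all 3 lists. The vertical log axis is the rank as a percentage of the list, best at the top, and colour gives the number of lists that hold the region; the 19 replicate 2 peaks without a partner are mostly low, with a median of 68.6%.

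Peaks of the Ccl5-Ccl4 window ranked high in replicates 1 and 3. Their median rank was 12.6% of the list in replicate 1, 43.7% in replicate 2 and 13.7% in replicate 3, where the median of a whole list is 50.0%. In the Ccl2-Ccl7 window it was 40.7%, 44.6% and 42.5%. Of the peaks of both windows, 4 of 11 in replicate 1, 9 of 37 in replicate 2 and 4 of 13 in replicate 3 were in the best 10% of their list, which by construction takes 9.99%, 10.0% and 10.0% of the lists. In replicates 1 and 3 all of these lay in the Ccl5-Ccl4 window, and in replicate 2, 7 of the 9 did.

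The share of Ccl5-Ccl4 peaks with a partner in another list was below that of the whole list in replicates 1 and 3 and above it in replicate 2. In replicate 1, 8 of 10 overlapped another list, or 80.0% (95% Wilson interval 49.0 to 94.3), against 94.3% of the list. In replicate 3, 7 of 10 did, or 70.0% (39.7 to 89.2), against 93.2%. In replicate 2, 9 of 28 did, or 32.1% (17.9 to 50.7), against 25.7%. The intervals cover counting error only and treat the peaks of a list as independent, so they give no test against the whole list. In the Ccl2-Ccl7 window the peaks that overlapped another list were 1 of 1, 2 of 9 and 2 of 3. The peaks of both other lists were overlapped by 4 of 10 replicate 1 peaks in the Ccl5-Ccl4 window, against 69.1% of the list, and by 4 of 10 replicate 3 peaks, against 52.8%. For replicate 2 it was 4 of 28, against 12.7%.

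Replicate 2 alone held 26 of the 44 regions (7 in the Ccl2-Ccl7 and 19 in the Ccl5-Ccl4 window), while in the whole series it alone held 72.1% of 38463 regions. In the Ccl2-Ccl7 window their ranks ran from 9.90% to 85.6% with a median of 61.7%, and in the Ccl5-Ccl4 window from 0.898% to 97.7% with a median of 68.6%. Replicate 3 alone had 1 region in the Ccl2-Ccl7 window and 3 in the Ccl5-Ccl4 window, against 1.58% of the regions of the series. Replicate 1 alone had 2, both in the Ccl5-Ccl4 window and both described above, against 1.00%.

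Some missing partners lay where a list skips a peak number, and others did not. The numbers in the peak names rise along chromosome 11 in all 3 lists, and over the whole lists 39.1%, 19.7% and 38.8% of the numbers are skipped in replicates 1, 2 and 3. Within the Ccl5-Ccl4 window 2 of 12, 12 of 40 and 5 of 15 numbers were absent. Replicate 2 skips 1 number between 83430706 and 83450307, the interval that holds the region of replicates 1 and 3. Replicate 3 skips 3 numbers between 83347286 and 83430237, where 2 regions of replicates 1 and 2 lie. Replicate 1 skips 1 number between 83459683 and 83477084, where the best-ranked replicate 2 peak and the strong replicate 2 peak at 83475757 lie. Replicate 3 skips 1 number between 83463336 and 83479237, where that peak and the strong replicate 1 peak at 83477084 lie. Replicate 1 skips no number across the region of replicates 2 and 3 at 83341357 to 83342036. Replicate 2 skips none across the strong replicate 1 and 3 peaks at 83477084 and 83479237. The positions of the skipped peaks are not known, so whether they lay at the missing partners was not tested.

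Sharing requires overlap, which itself limits how far apart centres can lie. Over both windows the centres of overlapping peaks were a median of 25 bp apart for replicates 1 and 2 (8 pairs), 62.5 bp for replicates 1 and 3 (6 pairs) and 37.5 bp for replicates 2 and 3 (8 pairs). Over the whole lists the medians were 41, 46 and 42 bp, and the windows departed from them in no common direction. The largest offset, 223 bp, was at 83390434 to 83391106. Regions with at least 2 replicates were 600 to 650 bp wide in the Ccl2-Ccl7 window and 447 to 700 bp in the Ccl5-Ccl4 window, against a median of 649 bp in the whole series. Neighbouring regions of any kind were a median of 6.45 kb apart in the first window and 6.19 kb in the second.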

How the data were processed

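For each replicate the authors deposited a peak list with a peak score, and a series table of intervals covered by at least 2 replicates, which was used in the closing observations alone. The coordinates are of mm9, per the submitters' processing notes. The peak names have the form that MACS gives. For the aligner, the caller's version and threshold and the use of control reads, the sources used here give nothing.

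Peaks were assigned by their centre. Overlap of at least 1 bp counted as shared, and overlapping peaks of the 3 lists were merged into regions. Ranks were taken by score within a list, with ties at their middle rank. Densities used the mm9 chromosome lengths of GenomeInfoDb 1.38.1. Tiles were consecutive and did not overlap. The overlap code was run on copies of replicate 1 peaks that were shifted slightly or moved beyond the chromosomes. Merging was run on the slightly shifted copies. For overlap of 1 bp the shifts fixed the outcome, so this checks the code alone. Promoters were searched for AAAGGTCA and AGGTCA on both strands.

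The text names each region with at least 2 replicates and the 5 best-ranked peaks of a single list. Members, lists and alternatives were chosen with earlier results of these data known. Scripts ran in Python 3.11.15 with pandas 2.3.3, numpy 2.4.6 and scipy 1.17.1, and plots were drawn with matplotlib 3.10.9.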

Additional observations from a re-analysis of the deposited data

How the results depend on the processing

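The alternatives were a reciprocal overlap of 50%, peak centres no more than 100 bp apart, only the higher-scored 50% of every list, lists of equal length (6777 best-scored peaks), windows 50 kb wider or 25 kb narrower on each side, other reference densities and leaving out each replicate. For the difference between the windows they were added after seeing the data. All densities and that difference stayed in the same direction in every alternative that gave a value. The higher-scored 50% gave a mean of 2.67 peaks per list in the Ccl2-Ccl7 window and 10.3 in the Ccl5-Ccl4 window, as the lists are shorter. In the Ccl2-Ccl7 window, a reciprocal overlap of 50% left 1 region of at least 2 replicates, and equal lists left 0 regions of all 3, since its replicate 2 peak ranks beyond 6777. In the Ccl5-Ccl4 window, the 10 shared regions became 7 under a reciprocal overlap of 50% and with centres no more than 100 bp apart. The higher-scored 50% also gave 7 there, equal lists gave 8 and the wider window gave 11. Leaving out each replicate gave 1 to 2 shared regions in the Ccl2-Ccl7 window and 5 to 7 in the Ccl5-Ccl4 window, as fewer lists were compared. The flanks of the Ccl2-Ccl7 window held 0 peaks, so that reference gave no value. The difference between the windows was taken within each replicate. No comparison between groups of samples was possible because the series has a single group.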

Other observations

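Between the windows, from 82 to 83.25 Mb, replicates 1, 2 and 3 had 5, 26 and 4 peaks, or 1.57, 1.48 and 0.959 times the density of the genome. The merged lists gave 6 regions of at least 2 replicates there, 3 of them with all 3. These fell short of the 10 regions in the shorter Ccl5-Ccl4 window.

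The authors' deposited table lists 4 intervals in the Ccl2-Ccl7 window and 18 in the Ccl5-Ccl4 window, which join into 2 and 10 stretches. The replicate names given there matched the lists for 3 and 11 intervals as written, and for all 4 and 18 when the names of replicates 2 and 3 were exchanged. Replicate numbers here follow the sample titles.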
